A study of Mus musculus with 9 samples.

Results

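The control shRNA cultures were the control arm of an experiment in NIH 3T3 cells, a long-established fibroblast line from mouse embryos, in which every culture received a vector for a short hairpin RNA (shRNA). The control shRNA cultures contributed 3 of the 9 arrays of the study, labelled as biological replicates 1, 2 and 3. The other 6 arrays, of cells with hairpins against Ube2m or Ube2f, were not used. Total RNA was taken 5 days after transduction, and 6 ug of it was labelled and hybridised to 1-colour Affymetrix arrays. The growth label of all samples, the controls included, describes cells that express Ube2f and were kept in medium with fetal calf serum, and it does not say whether that expression was added by a construct. No untransduced cells are among the arrays, so the values describe cells that carried a control vector. Of 45101 probe sets, 34945 had 1 gene name, and the probe set with the highest mean over the 3 control arrays was kept for each of 18193 genes. These genes were ranked by that mean without any contrast. Nothing in the labels beyond the word biological says how the cultures were separated, so the spread given here is the spread between these 3 arrays.

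Fibroblasts build and remodel the extracellular matrix: they secrete fibrillar collagens, crosslink them outside the cell, and hold on to them through integrins that couple to contractile actin filaments. They grow in response to serum factors such as platelet-derived growth factor, lysophospholipids and insulin-like growth factors, which act through receptor kinases and G protein-coupled receptors on the Ras and PI3-kinase pathways. NIH 3T3 cells are a standard line for such work, because they grow without limit yet keep a flat, contact-inhibited fibroblast shape.

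The signal is a linear intensity that summarises the probes of a probe set. It depends on the probes as well as on the RNA, so a rank orders signals and does not order amounts of RNA. To say that a gene was detected, a background level was taken on each array as the 95th percentile of 70 genes for olfactory, vomeronasal and trace amine receptors, which are chiefly used in sensory neurons. The level was 62.6, 51.7 and 71.6 on replicates 1, 2 and 3. A gene is called above background where its signal was over the level on all 3 arrays, and strong where its mean lay in the top 10% of all genes. Weak is used for the lowest 25% of the genes above background, 2470 genes with means up to 354. The 1819 strong genes had means of 2799.0 or more. The last gene inside was Ccnyl1 at 2799.0, and the next gene below had 2798.93.

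Above background were 9881 genes, or 54.3% of those ranked, while 6713 genes (36.9%) were at or under the level on every array and the other 1599 crossed it on 1 or 2 arrays. The strong genes are by construction 10.0% of the genes. The 182 genes in the top 1% of the ranking held 18.9% of the summed mean signal. Each array had been scaled to a trimmed mean of 500, and the median signals of 55.3, 53.3 and 64 were similar. Spearman correlations across genes between pairs of arrays ran from 0.946 to 0.952, a description across genes that are not independent replicates. The ratio of the 3′ to the 5′ actin control probe sets, a sign of RNA length and labelling, was 1.82 in replicate 1 against 1.29 and 1.32 in the others, and the spiked dap control gave 4.61 against 2.25 and 2.04. Among genes above background the median coefficient of variation (CV) over the 3 arrays was 12%, falling from 16.9% in the lowest 25% of their signals to 7.75% in the highest 10%.

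**Figure D1:**
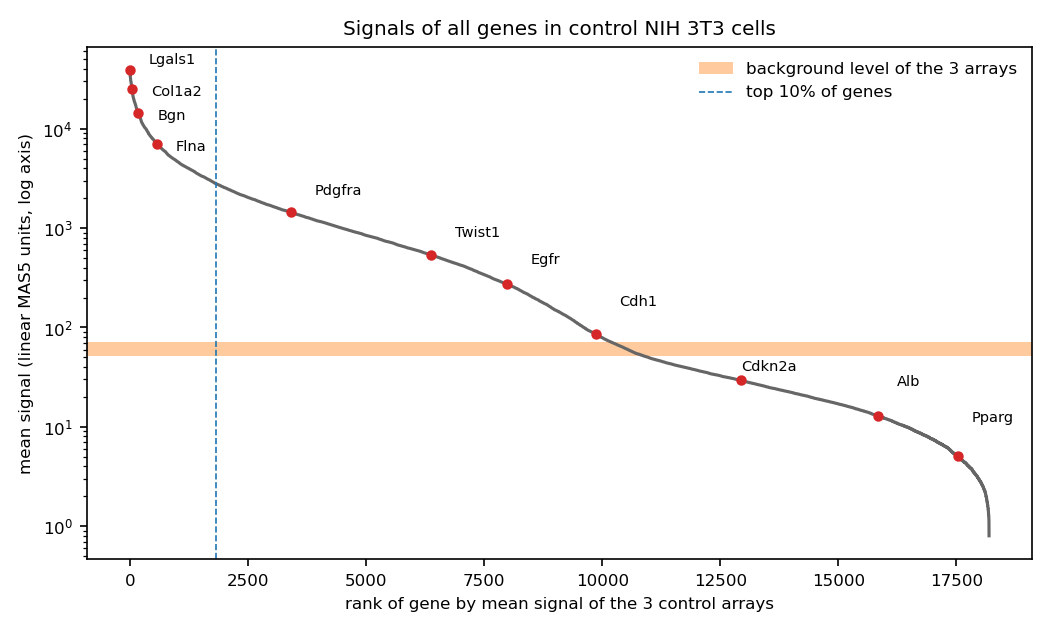
Mean signal of every gene (linear MAS5 units on a log axis) against its rank over the 3 control arrays, with 11 genes marked in red, the background levels of the 3 arrays as an orange band and the edge of the top 10% as a dashed line. Lgals1, Col1a2, Bgn and Flna lie left of the line, Pdgfra, Twist1 and Egfr lie on the slope above the band, Cdh1 lies close to it, and Cdkn2a, Alb and Pparg lie under it.

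The 4 genes used to check the cell type were all strong. Col1a2 and Col1a1, which encode the chains of type I collagen, gave 24454, 21076 and 29545 for Col1a2 and 19217, 15526 and 19393 for Col1a1, with means of 25025 ± 4263 (SD, n = 3) and 18045 ± 2184 (SD, n = 3). Bgn, the small leucine-rich proteoglycan biglycan, measured 14938, 13728 and 14141 with a mean of 14269 ± 615 (SD, n = 3). Flna encodes filamin A, a crosslinker of actin filaments, and its signals were 8088, 6164 and 6845 with a mean of 7033 ± 976 (SD, n = 3). These genes held ranks 44, 107, 177 and 572, and on none of them did the highest array reach 2 times the lowest. On these markers the data did not go against the label of a fibroblast line. Col1a1 had a second probe set with a mean of 3645.0, so its level as a number depends on the probe set chosen.

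At the very top of the ranking stood Lgals1, the gene of the secreted lectin galectin-1, at 37299, 34399 and 44699.6. Of the 25 highest genes, the others were mainly parts of the translation machinery: ribosomal proteins led by Rps3a1 at 34594, 32782 and 40188, and the elongation factor Eef1a1 at 29459.8, 27392 and 34878. Across all symbols of that kind, 43 of 46 genes for cytosolic ribosomal proteins were above background and 38 were strong, while all 76 mitochondrial ribosomal proteins and 36 of 39 proteasome subunits were above it. Both cytoskeletal leaders, Vim and Actg1, stood in the same group, together with the redox protein Txn1 at 28839.5, 26898 and 34773 and the chaperone Hspa8 at 27029, 27107 and 32663. Replicate 3 was the highest array for all 25 of these genes, against 31.4% of all genes above background. All 16 measured members of a list of ubiquitous genes were above background.

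Matrix genes were often strong. Of 127 measured genes in 5 matrix lists, 85 (66.9%, against 54.3% of all genes) were above background, 37 of them strong and 10 weak, with a median mean signal of 631 against 143 over all genes. Among 29 collagens 20 were above background and 11 strong. Other fibrillar collagens were strong too: Col3a1 at 18080.2, 14820.2 and 16009, Col5a2 at 20068, 17598 and 21029 and Col5a1 at 6800.0, 6328 and 6394. The second probe set of Col3a1 had a mean of 1343. Col5a3 was above background at 773, 664 and 687, from 1 of 2 probe sets. The beaded-filament collagen Col6a3 gave 14923, 12123 and 16757. Col6a1 and Col6a2 also were strong. The basement membrane chains Col4a1 at 11586, 8795 and 12744 and Col4a2 at 8011, 5968 and 7971 were strong as well, whereas Col4a3 at 28.9, 36.1 and 38.6 and Col4a4 at 21.9, 11.6 and 42.4 stayed under the level. Of the cartilage collagens, Col2a1 measured 70.7, 19.2 and 45.2, over the level on replicate 1 only, Col11a2 5.9, 26.9 and 9.9 and Col11a1, which was above background, 777, 637 and 451. Col14a1 and Col15a1 were not above background on any array.

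The enzymes that fold, hydroxylate and crosslink collagen were all detected, 16 of 16, and 8 of them were strong. Lox, the lysyl oxidase that starts crosslinking, gave 21776, 19461 and 18899. Pcolce, which enhances the removal of the collagen propeptide, gave 18389, 17579 and 16794. The collagen chaperone Serpinh1 gave 16126, 15482 and 14539. P4hb, the beta subunit of prolyl 4-hydroxylase, reached 17700.4, 14292 and 16162. Its catalytic partner P4ha1 reached 2085, 1787 and 1768. The lowest of the list, P4ha3, still gave 327, 257 and 244. Replicate 1 was highest for 14 of these 16 genes, with a median ratio of 1.16 to replicate 2. Over all 9881 genes above background it was highest for 4022 (40.7%), with a median ratio of 1.03. The 3′ to 5′ control ratios were also highest in replicate 1, and their part in this offset was not tested.

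Proteoglycans ranged from strong to not above background. Besides Bgn, the large aggregating proteoglycan Vcan measured 5595, 6097 and 6068. The syndecans Sdc1 and Sdc2 had 3411, 4109 and 3589.7 for Sdc1 and 2893, 3861 and 3894 for Sdc2. Dcn, decorin, which is abundant in many connective tissues, was above background but not strong at 625, 746 and 602, from 1 of 2 probe sets. Its relatives Lum and Fmod were not above background, at 7.3, 23.4 and 28.5 for Lum and 58, 48.2 and 4.7 for Fmod. Neither was the cartilage proteoglycan Acan, at 38.2, 47.4 and 24.3. In all, 12 of 22 (54.5%, against 54.3% of all genes) were above background.

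Among 38 matrix glycoproteins, 26 (68.4%, against 54.3% of all genes) were above background. Sparc, a collagen-binding matricellular protein, gave 25176, 24847 and 29347. Fibronectin, Fn1, gave 19471, 15537 and 20629.8, while its second probe set had a mean of 275. Efemp1, an elastic fibre protein, gave 14545, 15215 and 15156. The basement membrane linker Nid1 gave 9681, 8405 and 12353. Of the laminin chains, Lamb1 was strong at 3817, 3572 and 4082 and Lamc1 and Lama4 were intermediate at 1451, 1241 and 1279.9 for Lamc1 and 1529, 1132 and 1308 for Lama4. Lama1 at 1.8, 20.9 and 2.5, Lama2 at 7.4, 8.8 and 9.6 and Lamb3 at 5.6, 3.7 and 4.9 were not above background. Eln, the elastin gene, differed between arrays at 1296, 1102 and 499, with replicate 3 lowest. Ccn1, a secreted matricellular protein induced by serum, differed more, at 5932, 5482 and 18761, with replicate 3 far above the others.

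Among proteases and inhibitors the inhibitors Timp2 and Timp1 led. Timp2 gave 20475, 18897 and 22115, Timp1 gave 8116, 8380.4 and 10996 and Timp3 gave 5838, 4847 and 4989, all strong. Timp4 gave 15, 13.2 and 80.7, over the level on replicate 3 only. The gelatinase Mmp2 measured 10088, 7811 and 8955 and its membrane-bound activator Mmp14 2191, 2449 and 2946. The collagenase Mmp13 at 0.9, 0.6 and 2.2, the neutrophil collagenase Mmp8 at 8.7, 1.3 and 19.1 and the second gelatinase Mmp9 at 21.4, 43.7 and 9.1 were not above background. Over the list 11 of 22 genes passed.

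**Figure D2:**
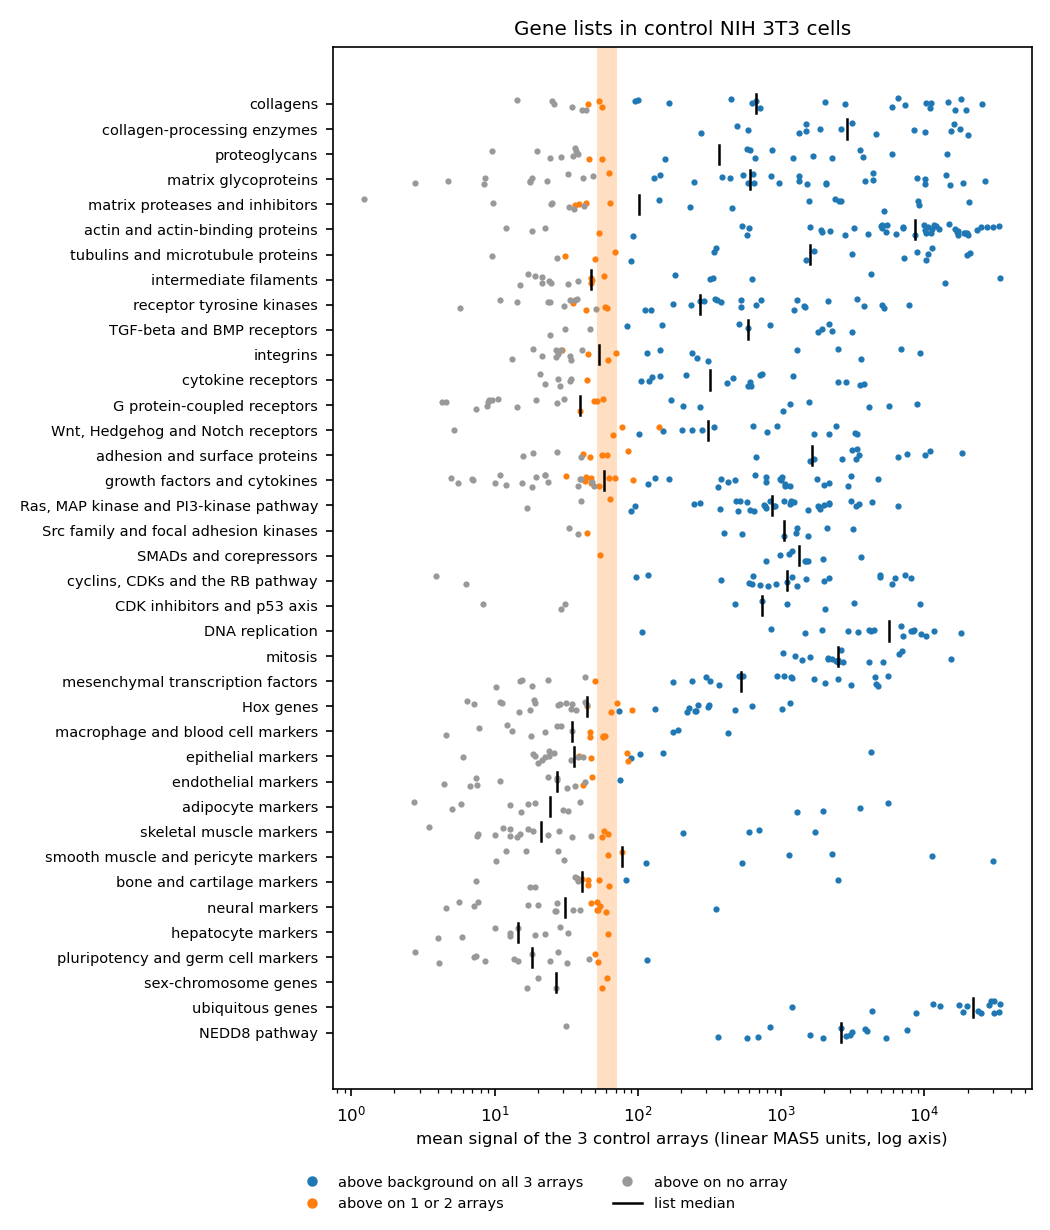
Mean signal over the 3 control arrays (linear MAS5 units on a log axis) of each measured member of 38 gene lists, coloured by whether it was above background on all, some or none of the arrays, with the list median as a black bar and the background levels as an orange band. Actin, DNA replication and ubiquitous genes have the medians furthest right, and the lists of blood, epithelial, endothelial, hepatocyte and germ cell markers have medians under or near the band.

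Of 85 measured genes in 3 cytoskeletal lists, 63 (74.1%, against 54.3% of all genes) were above background, 46 of them strong and 7 weak. The actin list held the most strong genes: 43 of 47 members were above background and 35 were strong, with a median mean signal of 8543. Actg1, cytoplasmic gamma-actin, gave 30017, 30912 and 38183 from its 1 probe set, which is of a type that can match several transcripts. Actb, beta-actin, gave 22360.0, 20521 and 31116, while its second probe set had a mean of 754. The monomer-binding peptides Tmsb10 and Tmsb4x gave 26638, 24265 and 31361 for Tmsb10 and 22403, 21468 and 25456 for Tmsb4x. The severing protein Cfl1 gave 18714, 19493 and 22378. Pfn1, profilin, gave 12899, 14817 and 10136. Contractile and focal adhesion parts were strong as well: the non-muscle myosin Myh9 had 15815, 15374 and 13379. The tropomyosin Tpm4 had 15460.0, 15460.3 and 19698. Vinculin, Vcl, had 11508, 10277 and 12953. Tagln, a smooth muscle actin-binding protein that is also used by myofibroblasts, had 10260.5, 10627 and 12724. The other 4 members were not above background on all arrays: the sarcomeric alpha-actinins Actn2 (3.1, 39.8 and 12) and Actn3 (10.2, 47.5 and 103), smooth muscle myosin Myh11 (16, 15.3 and 4.7) and the neuronal Tagln3 (58.8, 4.8 and 3.7). Replicate 3 was highest for 26 of the 43 detected genes, with a median ratio of 1.13 to the mean of the other arrays. Over all genes above background it was highest for 3107 of 9881 (31.4%), with a median ratio of 0.968. The 25 genes at the top of the ranking were also all highest in replicate 3, and the part of signal level in this offset was not tested.

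Acta2, smooth muscle actin, held rank 20 at 28740.2, 27071 and 34332, but this rests on 1 of its 3 probe sets. That probe set is of a type that can match several transcripts, and the other 2 had means of 55.9 and 41.6, neither above background. The deposited values do not tell apart the actin messages that such probes may bind.

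Tubulins and microtubule proteins gave 13 of 18 (72.2%, against 54.3% of all genes) above background and 8 strong. Tuba1a reached 20224, 19508 and 22143 and Tubb5 19224, 19564 and 20898. The neuronal tubulin Tubb3 was weak at 398, 305 and 356 and the neuronal proteins Map2 and Stmn2 were not above background at 31.9, 16.5 and 32.9 for Map2 and 25, 2.9 and 0.9 for Stmn2. Intermediate filaments were narrower, with 7 of 20 above background. Vim, vimentin, the filament of mesenchymal cells, gave 33018, 30551 and 37762. Lmna, the gene of the A-type nuclear lamins, gave 15268, 12591 and 13714. The simple epithelial keratins Krt8 and Krt18 gave 46.2, 31.2 and 36.3 for Krt8 and 20.4, 25.7 and 18.2 for Krt18 and the muscle filament Des 52.5, 56.9 and 65, so that none of these 3 was above background on all arrays.

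Promoters are shown for 5 of these genes as examples. Some actin and actin-binding genes are textbook examples of control by serum response factor, which binds the CArG box. Other promoters hold a CCAAT box or a TATA box. Each promoter shown is the 250 bases before the transcription start in RefSeq's annotation of GRCm38.p6, 5′ to 3′ on the gene's strand. They lie at chr11:120348496-120348745 on the minus strand (Actg1), chr14:20929148-20929397 on the plus strand (Vcl), chr2:13574061-13574310 on the plus strand (Vim), chr6:4505368-4505617 on the plus strand (Col1a2) and chr3:145649986-145650235 on the minus strand (Ccn1). Capitals mark a CArG box, CCAAT on either strand (ATTGG where it lies on the other), or TATAAA on the gene's strand.
Actg1: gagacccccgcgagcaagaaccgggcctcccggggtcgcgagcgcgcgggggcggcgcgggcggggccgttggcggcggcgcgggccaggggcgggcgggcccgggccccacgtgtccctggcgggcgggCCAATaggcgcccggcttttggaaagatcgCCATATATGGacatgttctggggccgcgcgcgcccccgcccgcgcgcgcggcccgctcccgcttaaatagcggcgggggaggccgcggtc
Vcl: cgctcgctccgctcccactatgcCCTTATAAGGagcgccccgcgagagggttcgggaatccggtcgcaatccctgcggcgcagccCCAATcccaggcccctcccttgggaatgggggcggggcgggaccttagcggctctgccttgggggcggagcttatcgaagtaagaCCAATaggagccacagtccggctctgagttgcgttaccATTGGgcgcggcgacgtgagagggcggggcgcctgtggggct
Vim: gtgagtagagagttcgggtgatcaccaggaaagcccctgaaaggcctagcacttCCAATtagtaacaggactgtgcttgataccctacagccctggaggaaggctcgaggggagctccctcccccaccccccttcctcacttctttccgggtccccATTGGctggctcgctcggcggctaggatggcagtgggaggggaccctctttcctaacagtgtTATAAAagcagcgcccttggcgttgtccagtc
Col1a2: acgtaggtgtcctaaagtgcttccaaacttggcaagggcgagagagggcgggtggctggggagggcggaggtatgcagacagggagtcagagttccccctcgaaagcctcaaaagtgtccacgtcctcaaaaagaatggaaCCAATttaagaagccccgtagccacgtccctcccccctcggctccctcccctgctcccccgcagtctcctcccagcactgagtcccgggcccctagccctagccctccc
Ccn1: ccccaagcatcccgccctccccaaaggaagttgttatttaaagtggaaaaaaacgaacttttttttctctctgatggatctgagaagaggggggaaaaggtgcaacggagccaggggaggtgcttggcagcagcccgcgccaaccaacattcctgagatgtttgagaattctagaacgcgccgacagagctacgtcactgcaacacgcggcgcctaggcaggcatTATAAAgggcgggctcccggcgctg

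The CArG box of Actg1, CCATATATGG, began 90 bases before the start, and that of Vcl, CCTTATAAGG, began 227 bases before it. TATAAA began 32 bases before the start of Vim and 25 before that of Ccn1. CCAAT stood once in Actg1 and Col1a2, 2 times in Vim and 3 times in Vcl. None of the marked motifs overlapped in these 5 windows.

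Over windows from 250 bases before to 50 after the start, 41 of the 47 actin list genes had a promoter in the table, and 6 of them (14.6%) held a CArG box on either strand: Actc1, Myl9, Acta1, Cnn2, Actg1 and Vcl. In the whole table of 32851 promoters the share was 1.63%. Among strong actin list genes with a promoter, 4 of 32 (12.5%) held a CArG box, and Actc1 and Acta1 were not strong. Of the 54 cell cycle genes with a promoter, out of 67, 59.3% held CCAAT on either strand, against 37.4% of the table. TATAAA stood from 40 to 20 bases before the start in 1.91% of the table. Such matches describe letters and show no binding. The ranked genes as a whole, the genes not above background and the matrix, receptor, signalling and lineage lists had promoters for under 80.0% of their members, so no share is given for them.

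Receptors were less uniform. Over 7 lists, 96 of 163 measured genes were above background, 26 of them strong and 28 weak, with a median mean signal of 202. The detected share, 58.9%, lay near the 54.3% of all genes. Among 37 receptor tyrosine kinases, 23 (62.2%) were above background and 5 strong. Pdgfrb, the beta receptor for platelet-derived growth factor, gave 5576, 4514 and 5138. Pdgfra, the alpha receptor, gave 1450.1, 1389 and 1509, with its other probe sets at means of 265 and 192. Axl, the Gas6 receptor, gave 8575, 7259.5 and 7583, although its second probe set had a mean of 18.7. The collagen receptors Ddr1 and Ddr2 gave 4608, 5117 and 5933 for Ddr1 and 2424, 1949 and 1953 for Ddr2. Igf1r, the insulin-like growth factor receptor, gave 3805, 2844 and 3417. The insulin receptor, Insr, gave 396, 349.6 and 319. Fgfr1 measured 1466, 1161 and 1214 and Egfr, the epidermal growth factor receptor, was weak at 238, 321 and 257. Receptors known mainly from endothelial, blood and neural cells were found on either side of the level. Flt1, a VEGF receptor, gave 808, 553 and 655, Csf1r, of macrophages, gave 185, 162 and 179 and Ntrk2, a neurotrophin receptor, gave 90.5, 107 and 136, all above background, the last from 1 of 8 probe sets. Kdr, the other main VEGF receptor, gave 33.3, 25.5 and 11.5, Kit gave 48.9, 33.1 and 9.1 and Flt3 gave 59.9, 8.7 and 44.2, none above background.

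Receptors of the TGF-beta and BMP family were detected for 10 of 13 members (76.9%, against 54.3% of all genes). The type II receptors Bmpr2 and Tgfbr2 gave 3449, 2639.8 and 3287 for Bmpr2 and 2038, 1896 and 1876 for Tgfbr2. The type I receptors Bmpr1a and Tgfbr1 gave 2111, 2086 and 2279 for Bmpr1a and 850.4, 735 and 915 for Tgfbr1. Bmpr1b and the endothelial Acvrl1 were not above background, at 46.7, 18.5 and 7.6 for Bmpr1b and 32.5, 33.2 and 27.7 for Acvrl1.

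Integrins, which join the matrix to actin, were detected for 10 of 24 members (41.7%, against 54.3% of all genes) and 3 were strong. Itgav gave 9468, 8423 and 9954. Its partner Itgb5 gave 4809, 2979.9 and 2990.1. The common beta chain Itgb1 gave 5925, 7687 and 6883. The fibronectin receptor chain Itga5 varied, at 1153, 802 and 1889, with replicate 3 highest. The leukocyte chains Itgb2, Itgal and Itgam were not above background at 16.5, 16.2 and 23 for Itgb2, 35.3, 38.5 and 26.7 for Itgal and 1.5, 27.4 and 10.5 for Itgam. Surface and adhesion proteins included the caveolar coat protein Cav1 at 17197, 18346 and 18893, the hyaluronan receptor Cd44 at 6533, 7334 and 8768 and Thy1, a fibroblast surface protein, at 4268, 2917 and 2744. N-cadherin, Cdh2, was strong at 3284, 2682 and 3332, E-cadherin, Cdh1, lay at 93.2, 116 and 47.7 with only replicates 1 and 2 over the level, and the endothelial cadherin Cdh5 was not above background at 5.1, 21.3 and 55.5.

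Of 25 G protein-coupled receptors 9 (36.0%, against 54.3% of all genes) were above background. The sphingosine 1-phosphate receptor S1pr3 gave 8259, 7865 and 10497. The thrombin receptor F2r gave 5179, 5173 and 6524. The lysophosphatidic acid receptor Lpar1 gave 1472, 1443 and 1788. S1pr5, Lpar3 and the angiotensin receptors Agtr1a and Agtr2 were not above background, with 7.7, 3.6 and 1.5 for the first. Cxcr4, the receptor for Cxcl12, was not above background at 1.6, 20.9 and 4.8. Ackr3, which also binds Cxcl12, was strong at 3597, 4189 and 4429.9. Cytokine receptors passed for 17 of 24 members, led by the TWEAK receptor Tnfrsf12a, whose arrays differed most among those 17 at 1936, 3476 and 6032, and by the shared signalling chain Il6st at 3301, 2984 and 4326. The interleukin-2 receptor chains Il2ra and Il2rb were not above background. Among Wnt, Hedgehog and Notch receptors 14 of 18 passed, led by Fzd1 at 4349, 2869.8 and 2992 and Fzd2 at 3549, 3458 and 2783, with the Hedgehog transducer Smo at 2908, 2067 and 2210.5 and Notch2 at 1667, 1855 and 1556.

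**Figure D3:**
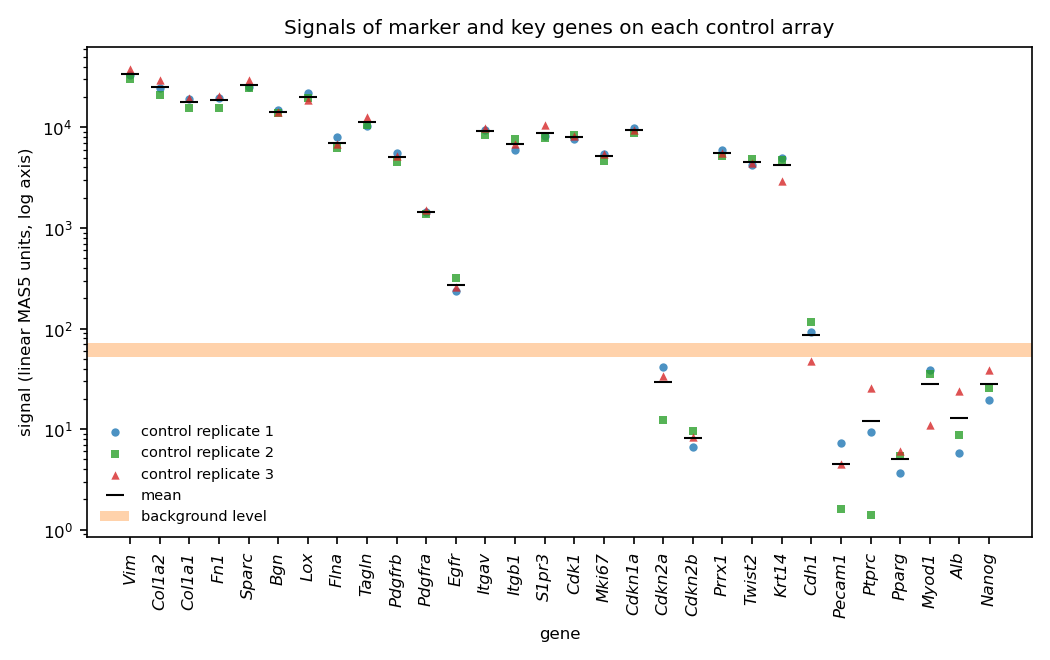
Signal (linear MAS5 units on a log axis) of 30 genes on each control array, with the mean as a black bar and the background levels as an orange band. From Vim to Twist2 the genes lie above the band except Cdkn2a and Cdkn2b, Krt14 lies above it, Cdh1 straddles it, and Pecam1, Ptprc, Pparg, Myod1, Alb and Nanog lie under it on all 3 arrays.

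Few ligands were strong. Of 50 growth factors and cytokines, 22 (44.0%, against 54.3% of all genes) were above background and 3 (6.0%, against 10.0%) strong. The strong ones were Kitl, the ligand of Kit, at 4678, 4564 and 5002, Pdgfc at 2932, 3230.5 and 3069 and the macrophage growth factor Csf1 at 2570.3, 2272 and 3903. Pdgfa gave 1097, 944 and 1167 and Pdgfb, the ligand that binds both receptors of its family, was not above background at 42.3, 51.5 and 21.7. Tgfb1 gave 723, 625 and 989.5 and Vegfa 552, 563 and 868. Fgf2 at 22.4, 45.5 and 50.1, Hgf at 2.5, 38.8 and 25.8, Tnf at 15.1, 9.6 and 5.3 and Il1a at 8.7, 15.5 and 22.7 were not above background. Replicate 3 was highest for 16 of the 22 detected ligands, with a median ratio of 1.37 to the mean of the other arrays, against 31.4% and 0.968 over all genes above background. The EGF-family ligand Hbegf gave 518, 593 and 2079, the activin chain Inhba gave 1468, 1480.0 and 3521 and the neurotrophin Bdnf gave 1293, 1399 and 3270.0, each with replicates 1 and 2 close together.

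Intracellular signalling genes were broadly detected. With the ligands, 94 of 131 signalling genes (71.8%, against 54.3% of all genes) were above background, 17 of them strong and 7 weak. In the Ras, MAP kinase and PI3-kinase list 33 of 36 passed, at middling signals with a median of 857 and 5 strong genes. Dusp1, a phosphatase that turns off MAP kinases, led at 5776, 5619 and 8294. Ptpn11, the phosphatase SHP2, gave 4514, 4261 and 4144. Akt1 gave 4525, 2927 and 2996, Map2k1 2124, 2127 and 2236 and Nras 1703, 2022 and 1710.5. Isoforms used by other tissues were not above background: Pik3cg, of white blood cells, had 46.3, 44.6 and 30.3 and Mapk10, the neuronal JNK3, had 11.2, 16.2 and 23.4. Of 11 Src family and focal adhesion kinases 8 passed, with Ilk strong at 3083, 2973 and 3468 and Fyn at 2463, 1752 and 2046. Fgr and Blk, of blood cells, were not above background.

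The growth coactivators Yap1 and Wwtr1 gave 2492, 2403 and 2461 for Yap1 and 2902, 2705 and 2522 for Wwtr1. Serum response factor, Srf, gave 778, 755 and 734. Among SMADs, which carry TGF-beta signals, 9 of 10 passed, with the shared Smad4 strong at 3578, 3626 and 3543. Smad7, a feedback inhibitor, differed between arrays at 1084, 728 and 1768.

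Cell cycle genes were nearly all detected: 62 of 67 (92.5%, against 54.3% of all genes) were above background, 27 strong and 3 weak. Their median mean signal was 2158. All 18 replication genes passed and 14 were strong. Pcna, the sliding clamp, gave 17774, 17305 and 19295. The helicase subunit Mcm5 gave 11904, 11641 and 11644. Rrm2, the small subunit of ribonucleotide reductase, gave 8598, 9880.5 and 10070.1. The lowest of the list was Tyms at 76.7, 89.7 and 155. All 17 mitotic genes passed as well, from Cdc20, the activator of the anaphase-promoting complex, at 15005, 16693 and 14577 and the topoisomerase Top2a at 7731, 6212 and 7106 to the spindle motor Kif11 at 924, 1128 and 1032. Mki67, the proliferation marker Ki-67, gave 5480.0, 4584 and 5386. The 3 arrays lay close together here, with a median CV of 6.80% for replication and 7.25% for mitosis.

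Of the cyclins and their kinases, Cdk1 gave 7606, 8343 and 8131, Cdk4 4758, 5326 and 4701 and Cdk6 6839.9, 5266 and 6499.6. The D cyclins Ccnd1 and Ccnd2 gave 6807, 5261 and 5814 for Ccnd1 and 8222, 6477 and 7088 for Ccnd2. Ccna2 gave 5325, 5087 and 4198 while the germ line cyclin Ccna1 was not above background at 1.4, 8 and 9.5. Cdk2 was weak at 127, 143 and 82.7, from 1 probe set, with no other of its probe sets above background on any array. The retinoblastoma gene Rb1 gave 942, 860.2 and 952. E2f1 gave 766, 492 and 522.

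CDK inhibitors lay far apart. Cdkn1a, p21, gave 9757, 8747 and 9432. Cdkn2c, p18, gave 3605, 3489 and 2639. Cdkn1b, p27, gave 612, 981 and 604. Cdkn2a, which encodes p16 and p19Arf, gave 41.8, 12.2 and 33.8 from its 1 probe set, and its neighbour Cdkn2b, p15, gave 6.7, 9.6 and 8.4. Cdkn1c, p57, gave 47.4, 3 and 42.3. None of these last 3 was above background on any array. Mdm2, the p53 ubiquitin ligase, gave 1942, 1772 and 2339.

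The hairpin targets of the study were also read in the control cells. Ube2f, an E2 enzyme of the NEDD8 pathway, gave 2618, 2638 and 2569. Of its 6 probe sets 5 were above background. Ube2m had no probe set with 1 gene name, so no value is given for it. Of 15 measured genes of the pathway 14 were above background, with the modifier Nedd8 at 7437, 8077 and 7046, the E1 subunits Nae1 at 5263, 5799 and 5096 and Uba3 at 2773, 3134 and 3519, and the cullins Cul1 at 2857, 2750.5 and 3458 and Cul3 at 3946, 3721 and 4264. Rbx1, a partner of cullins, gave 37.5, 5.1 and 51.7 from 1 probe set and was not above background, while its relative Rnf7 gave 2544, 3093 and 2801.

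Lineage lists were mostly at background. Over 13 lists 57 of 220 measured genes (25.9%, against 54.3% of all genes) were above it, 10 strong and 24 weak. Of the 57, 19 were among 26 mesenchymal transcription factors and 13 were among 33 Hox genes. Prrx1, a homeobox factor of limb and craniofacial mesenchyme, gave 5942, 5178 and 5603. Twist2 gave 4223, 4841 and 4469 and Snai2 4539.9, 4614 and 4702, factors of the mesenchymal state, and Twist1 was not strong at 614, 404 and 593. The chondrogenic factor Sox9 gave 2632, 2142 and 2675. Meox1 at 8.3, 26.5 and 36.4, Meox2 at 20.1, 21.5 and 3.5 and Tbx5 at 7, 10.8 and 28.7 were not above background.

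Hox genes are known to record the position along the body axis from which a cell came. Of the 33 measured, 13 (39.4%, against 54.3% of all genes) were above background, none of them strong and 9 weak. Hoxd8 at 1208, 1093 and 1136 and Hoxa5 at 1122, 1005 and 899.8 were the highest, followed by Hoxa3 at 716, 540.5 and 619 and Hoxa7 at 517, 461 and 447. In paralogue groups 1 to 9, which pattern the front and the trunk, 12 of 23 genes were above background, close to the 54.3% of all genes. In groups 10 to 13, of the posterior body and distal limb, 1 of 10 was, Hoxb13 at 84.7, 52 and 83, close to the level. By cluster, 5 of 9 Hoxa, 4 of 9 Hoxb, 2 of 7 Hoxc and 2 of 8 Hoxd genes passed. Hoxb9 varied most among those detected, at 247, 153 and 527.

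**Figure D4:**
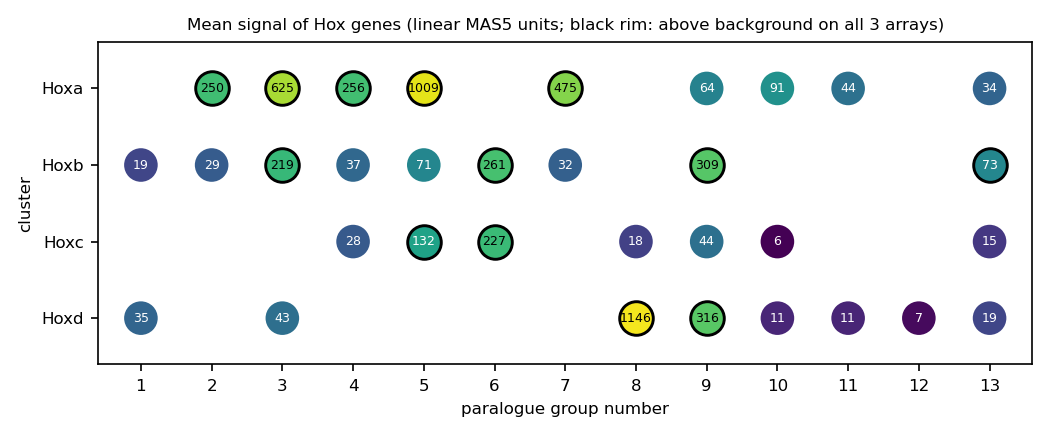
Mean signal (linear MAS5 units, written in each circle and shown as colour from dark, low, to yellow, high) of 33 measured Hox genes by cluster and paralogue group, with a black rim where the gene was above background on all 3 arrays. Rims lie in groups 2 to 9 apart from Hoxb13, and the brightest circles are Hoxd8 and Hoxa5.

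Markers of other cell types were checked for admixture and for lineage genes that fibroblasts share. Macrophage and blood cell markers passed for 3 of 17 genes: Cd14 at 439, 461 and 367, Lyz2 at 179, 196 and 196 and Csf1r at 185, 162 and 179, of whose 3 probe sets 1 was above background. The pan-leukocyte gene Ptprc gave 9.4, 1.4 and 25.6, Itgam 1.5, 27.4 and 10.5 and Fcgr3 5.2, 12.3 and 6. Endothelial markers passed for 1 of 14, Egfl7 at 64.4, 71.1 and 90.5, with Pecam1 at 7.3, 1.6 and 4.5 and Vwf at 1.5, 6.8 and 11.9. Hepatocyte markers passed for 0 of 11, and Alb, albumin, gave 5.8, 8.7 and 24. None of 5 sex-chromosome genes, Xist among them at 54.7, 54.6 and 59.3, was above background on all 3 arrays. Neural markers passed for 1 of 18, Tubb3.

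Epithelial markers passed for 4 of 20, and 1 of these was strong. Krt14, a keratin of basal epidermis, gave 4944, 4774 and 2925 from a probe set of a type that can match several transcripts. The second probe set had a mean of 3726 and the third 59.1. Krt5, the usual partner of Krt14, gave 29.1, 38.4 and 73.2. The basal factor Trp63 gave 42.2, 50.4 and 30.7 and was not above background. Epcam at 141, 185 and 126 rested on 1 of 2 probe sets.

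Adipocyte markers passed for 4 of 14. Dlk1, a preadipocyte membrane protein, gave 6013, 4714 and 6077 from 1 of 2 probe sets, the other at a mean of 62.6. The higher of the 2 is of a type that can match several transcripts. Lpl, lipoprotein lipase, gave 4063, 3454 and 3051. The early factors Cebpb and Cebpd gave 2359, 2069 and 1467 for Cebpb and 1527, 1228 and 1141 for Cebpd. The factors and products of the mature fat cell were not above background: Pparg had 3.7, 5.4 and 6, Cebpa 33.4, 5.5 and 7.1, Fabp4 47.7, 6.9 and 63.3 and Adipoq 45.3, 16.7 and 27.5.

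Skeletal muscle markers passed for 4 of 22 genes (18.2%, against 54.3% of all genes). These were cardiac troponin T, Tnnt2, at 1723, 1534 and 1869.8, Mef2c at 416, 508 and 1189, Acta1 at 651, 460.4 and 672 and Pax3 at 177, 212 and 233. The factors that determine muscle, Myod1 at 38.3, 35.6 and 11.1, Myf5 at 16.6, 0.6 and 13 and Myog at 24.6, 2.4 and 24.4, were not above background. Of 13 smooth muscle and pericyte markers 6 (46.2%, against 54.3% of all genes) passed. Strong were 2 of them, Acta2 included with the limit given above. Myh11 and the cofactor Myocd, at 25.9, 2.7 and 2.3, were not above background. Bone and cartilage markers passed for 2 of 13, Sox9 and Sp7 at 119, 53.7 and 75.2. Pluripotency and germ cell markers passed for 1 of 15, Esrrb at 115, 124 and 111 from 1 of 3 probe sets, with Nanog at 19.5, 25.5 and 38.5 and Pou5f1 at 7, 8.1 and 39.5.

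Whole gene families spanned a similar range. Of all genes 54.3% were above background. Of 48 keratins 7 (14.6%) were, of 84 potassium channels 7 (8.33%), of 70 cytochrome P450 genes 9 (12.9%), of 28 interleukins 3 (10.7%) and of 20 claudins 1 (5.0%). Without replicate 3 the potassium channels came to 11, the interleukins to 5 and the claudins to 2. By contrast 42 of 59 Rab GTPases (71.2%), which steer membrane traffic, and 225 of 305 zinc finger genes of the Zfp type (73.8%) passed. The latter had a median mean signal of only 201 and 4 strong members. Of the 70 receptor genes that set the level, Vmn2r29 alone lay over it on all 3 arrays. That count is small by construction, because the level is the 95th percentile of these same genes.

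Reproducibility had a pattern of its own. Among the 9881 genes above background, 361 (3.65%) had a highest array at least 2 times the lowest. Replicate 3 was the highest array for 185 of them and the lowest for 112. Over all 9881 genes above background, replicate 3 was the highest for 3107 (31.4%) and the lowest for 4015. The 10 genes with the largest ratio were Ajuba, Rad1, Ttc14, Crim1, Nprl3, Odf2, Ptgs2, Ttll1, Zbtb8a and Dusp5. Ajuba, a LIM protein of cell junctions, gave 2243, 2248 and 215. The checkpoint clamp gene Rad1 gave 693, 623 and 82.1. Both were low in replicate 3 only. Ptgs2, the inducible cyclooxygenase COX-2, gave 1786, 1671 and 9247 and its second probe set was above background too. In all 10 genes replicate 3 was the highest or the lowest array, as it was for most genes above background. Without replicate 3, 93 genes had a ratio of at least 2 between replicates 1 and 2.

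Because Ptgs2 and Dusp5 are induced by growth factors, a list of 45 immediate early and growth factor response genes was drawn up after these values were seen, and it supports nothing beyond its own values. Of the 45, 40 were above background, and replicate 3 was the highest array for 35 of these 40, against 31.4% of all genes above background. The median ratio of replicate 3 to the mean of the others was 1.52 in them and 0.968 over all genes above background, and 17 had a highest array at least 2 times the lowest. The transcription factor Egr1 gave 2387, 1755 and 7282, Fosl1 1898, 1519 and 4245 and Fos 160.5, 126 and 325. The feedback inhibitors Errfi1, Spry2 and Dusp6 gave 985, 925 and 2929 for Errfi1, 502, 562 and 1667 for Spry2 and 1456, 1572 and 2466 for Dusp6. Phlda1 gave 1978, 1764 and 6851. All 4 probe sets of Ccn1 were highest in replicate 3. Not every gene of this kind shared the pattern: Klf4 gave 9088, 8496 and 8893 and Atf3 180.2, 163 and 122. The 3′ to 5′ actin ratio was 1.32 in replicate 3, 1.29 in replicate 2 and 1.82 in replicate 1, and its part in this pattern was not tested.

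**Figure D5:**
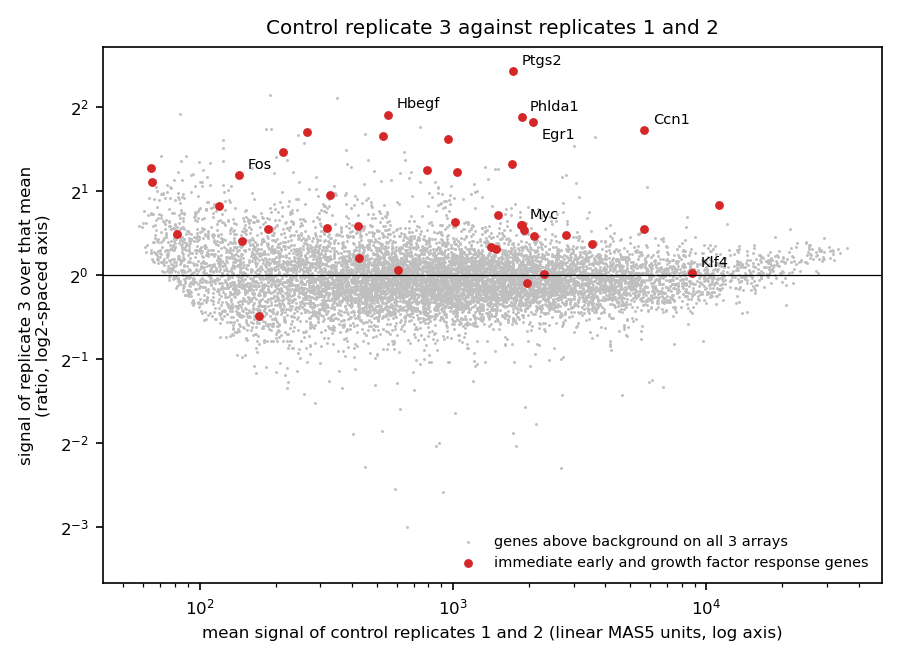
Signal of control replicate 3 divided by the mean of replicates 1 and 2 (log2-spaced axis) against that mean (linear MAS5 units on a log axis), for genes above background on all 3 arrays in grey and the detected members of the immediate early list in red. Red points lie mainly above the line at 1, with Ptgs2 highest, while Klf4 lies near the line.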

How the data were processed

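RNA of 3 control shRNA cultures of NIH 3T3 cells was measured on 1-colour arrays. The deposited values are intensity, a linear signal per probe set, attributed to MAS5 in the submitters' processing notes. Its version and settings are not stated in the sources used here. The trimmed mean (2% cut from each end) was 500 on every array, so each was scaled by 1 factor. No further normalization was applied. Such scaling leaves differences in the shape of the distributions, and MAS5 signals vary strongly near background.

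Probe sets with several gene names (932), without one (9160) and controls (64) were left out. Of the symbols, 18145 of 18193 were in the RefSeq gene table used here. Values are given per array, in the order replicate 1, 2 and 3, with SD and CV. The probe sets of a gene could differ widely, and those not kept are given for some genes only. No test was made, because 1 group was described. Arrays count no reads, and their number limits the precision. Python 3.11.15 with pandas 2.3.3 and numpy 2.4.6 was used. The calls against background were run on simulated data, with background values drawn from the same receptor genes separately for each array. That setting keeps false calls few by construction, so it does not show how often real background passes.

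The cells, the 39 lists (862 genes, 793 measured) and the 17 families were chosen with earlier results of these data known. The members of 1 list are not reported here as a group. Named genes were the 4 markers, the 25 genes highest in mean, list members (up to 6 highest and 4 lowest first), the 10 genes with the largest ratio of highest to lowest array, and the hairpin targets. Genes named outside this rule were chosen after their values were seen. The alternatives covered the background level, the probe set per gene, the scaling, a constant added, the filter and leaving out each array.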

Additional observations from a re-analysis of the deposited data

Results flagged for a closer look

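Signal was also present in probe sets that no comparison used, those without a gene name. Of 9160 such probe sets, 1491 (16.3%) were above the background level on all 3 control arrays, and the highest had a mean of 33685. They are unnamed in the probe table used here, so no gene can be given for them.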

How the results depend on the processing

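The numbers of genes above and not above background, and the totals over the lists and families, stayed within 1.5 times their reported values under each alternative run, the first between 9545 and 10492. Taking the mean over all probe sets of a gene lowered Col1a1 to 10845, Col1a2 to 15985 and Bgn to 12898, the median of the 4 markers from 16157 to 11872, and the median of the 820 named genes from 441 to 279. Without probe sets whose names end in _x_at or _s_at, that last median was 353 over the 811 genes left. Leaving out 1 array each gave 414 to 451. The 361 genes with a highest array at least 2 times the lowest became 164 with 64 added to every signal and 6466 over all genes, and 93 to 222 with 1 array left out, the fewest without replicate 3 and 214 without replicate 1, where 2 arrays in place of 3 lower the count by construction. Small marker counts moved: endothelial from 1 to 0, epithelial from 4 to 2 or 1, bone and cartilage from 2 to 1, hepatocyte from 0 to 1 and pluripotency from 1 to 0 under at least 1 alternative each. Of the families, potassium channels moved from 7 to as many as 12, interleukins from 3 to 5, claudins from 1 to 2 and the receptor genes that set the level from 1 to as many as 4. The cause was not tested. No paired analysis was possible because 1 group of samples was described and no groups were compared. Signal over background limits the calls: 1599 genes crossed the level on only 1 or 2 arrays.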

Other observations

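Further gene groups of the control cells, chosen after the signals were seen, were these. Of 30 annexins, S100 proteins and galectins, which bind calcium, membranes or sugars, 20 (66.7%, against 54.3% of all genes) were above background. The top 10% held 15 of them. Anxa1 gave 25896, 25184 and 32160.2, Anxa2 24964, 24409.6 and 27475 and S100a4 26530.3, 25152 and 30502. The second probe set of Anxa1 had a mean of 35.4. The neutrophil proteins S100a8 and S100a9 gave 41, 20.6 and 41.8 for S100a8 and 2.2, 9.6 and 7.7 for S100a9 and were not above background. Of 20 cathepsins and lysosomal proteins 13 (65.0%, against 54.3% of all genes) were above background. Ctsl, a lysosomal cysteine protease, gave 13084, 13873 and 14755, although its second probe set had a mean of 4.30, while Ctss and Ctsk, cathepsins of macrophages and osteoclasts, gave 2.8, 19.4 and 39.2 for Ctss and 26.3, 5.6 and 46 for Ctsk and were not above background. Of 26 glycolysis genes 15 (57.7%, near the 54.3% of all genes) were above background, with the widely used forms Pgk1 at 18223, 17519.6 and 19746 and Ldha at 17499, 17475 and 17128, and with the testis forms Pgk2 and Ldhc not above background at 19.3, 18.9 and 6.2 for Pgk2 and 7.2, 26.7 and 10.3 for Ldhc. Replicate 1 was the highest array for 12 of these 15 genes, against 40.7% of all genes above background.

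Of 24 imprinted genes 10 (41.7%, against 54.3% of all genes) were above background. Grb10, an inhibitor of growth factor receptors, gave 11382, 10563 and 8582, Plagl1 gave 3226, 2904 and 3809 and Gnas 14051, 12430.3 and 14784. The second highest probe set of Grb10 had a mean of 702. Plagl1 rested on 1 of 3 probe sets, and the other 2, with means of 33.8 and 31.5, were not above background. Of the 5 probe sets of Gnas 3 were not above background on any array, and the second highest had a mean of 69.3. Peg10, Nnat and Snrpn were not above background at 32.9, 11.5 and 42.8 for Peg10, 5.4, 21 and 20.8 for Nnat and 8, 19.6 and 7.1 for Snrpn. Of 20 Toll-like receptors and nucleic acid sensors 15 were above background and none was in the top 10%. Tlr4, the receptor for endotoxin, gave 632, 709.9 and 845 and its partner Ly96 289, 288 and 397. The DNA sensor Cgas gave 859, 888 and 904. Tlr7 and Tlr8 were not above background at 41.2, 20.2 and 21.2 for Tlr7 and 40.3, 1.9 and 6.3 for Tlr8.

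Mycn was among the highest signals, at 21809, 20648 and 25645, from 1 of its 3 probe sets. The other 2 had means of 31.0 and 9.13 and were not above background. Among the 1302 genes of the top 10% with several probe sets, 76 (5.84%) rested in the same way on 1 probe set while all the others were not above background, and among all genes above background 955 of 6395 (14.9%) did.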
